A study of Mus musculus with 24 samples.

Results

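The genes described here are 10 genes of the renin-angiotensin system, the hormone cascade through which the kidney regulates blood pressure and salt balance: Agt, Ace, Agtr1a, Agtr2, Mas1, Enpep, Mme, Atp6ap2, Agtrap and Prcp. They were chosen by name among the 18782 genes that had a probe set carrying their symbol alone, and each of the 10 had 1 such probe set, so that no choice between probe sets arose. Their RNA was measured in whole kidneys of 24 mice on Affymetrix Mouse Gene 1.0 ST arrays, 1 array per mouse. There were 6 mice in each of 4 groups, namely females and males of BPH/2J, the Schlager line bred for high blood pressure, and females and males of BPN/3J, the normotensive line bred as its control. The labels name no transgene and no treatment, all mice were 12 weeks old, and kidneys were taken during the inactive period of the day. Blood pressure was not measured in the mice whose kidneys went on the arrays, so no expression value can be set against a pressure. Each strain is an inbred line, and every difference that the lines have accumulated, as well as any difference in handling that went with strain, cannot be told apart from the strain comparison.

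In the classical cascade, renin cuts angiotensinogen to angiotensin I, angiotensin-converting enzyme turns this into angiotensin II, and angiotensin II acts through its type 1 receptor to constrict vessels and retain sodium. Other peptidases remove angiotensin II or lead it to angiotensin-(1-7), which acts through the Mas receptor with largely opposite effects. The proximal tubule of the kidney makes angiotensinogen, carries several of these peptidases on its brush border and responds to angiotensin II, so the kidney holds much of the cascade locally.

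Values are log2 expression after robust multiarray analysis (RMA), on which a difference of 1 is a doubling, and levels of different genes are not comparable because each probe set binds with its own strength. The median of an array was 6.89 to 6.97, and arrays of 1 group correlated at r = 0.981 to 0.997 across the 28853 probe sets. The labelled tissue was borne out by its markers, with Umod of the thick ascending limb at 13.44 to 13.76 and Slc34a1 of the proximal tubule at 13.54 to 13.73. Transcripts of liver were also present at uneven levels. The mean of 19 hepatocyte genes was 7.07 to 9.79 in BPH/2J females, 7.03 to 11.87 in BPN/3J females. Male kidneys had means of 7.43 to 9.78 for BPH/2J and 7.15 to 9.05 for BPN/3J. Arrays 2 and 5 of the BPN/3J females stood apart at 11.61 and 11.87, against at most 7.82 in the other 4 arrays of that group. Without both arrays, 5 of 6 calls between strains in females and 7 of 7 calls between sexes in BPN/3J were kept, the exception being Agtrap, and values without them are given below where they bear on a result. Differences were tested by limma on the 12 arrays of each comparison and were called where the p adjusted by Benjamini and Hochberg across every probe set fell below 0.05. P-values in the text are adjusted in this way unless stated otherwise.

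Between the strains, Mme, Agtrap and Atp6ap2 were higher and Enpep and Agt were lower in BPH/2J kidneys of both sexes, while the lower Mas1 level passed the test in males only. The share of all probe sets called alike in both sexes was not computed. In females, 3 of the 10 genes were higher in BPH/2J (Mme, Agtrap and Atp6ap2), set against 8.01% of all probe sets, and 3 were lower (Enpep, Agt and Prcp), set against 6.48%. In males, 4 were higher (Mme, Agtrap, Atp6ap2 and Agtr1a, against 7.48% of all probe sets) and 3 were lower (Mas1, Enpep and Agt, against 7.70%). These shares count dim probe sets, while all of the 10 genes except Agtr2 and Mas1 lay above the 40th percentile of mean expression. Among probe sets above that percentile, 4457 were called in females and 4695 in males, against 4180 and 4381 over all probe sets. Calls were thus a larger share of the brighter probe sets. At the Bonferroni threshold used in the study's methods, 2 genes remained in females (Mme and Enpep, against 2.36% of all probe sets) and 3 in males (Mme, Mas1 and Enpep, against 2.56%). The values of the strains did not overlap for 4 genes in females (Mme, Enpep, Agt and Atp6ap2, against 9.34% of all probe sets) and for 4 genes in males (Mme, Mas1, Enpep and Agtrap, against 9.65%). The median difference of the 10 genes was -0.02 in females and 0.08 in males, beside 0.02 and 0.00 over all probe sets, so the genes as a list shifted in no 1 direction. Ace and Agtr2 were called in neither sex, and the calls of Agtrap and Prcp in females and of Atp6ap2 and Agtr1a in males were lost without single arrays, as given for each gene.

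**Figure D1:**
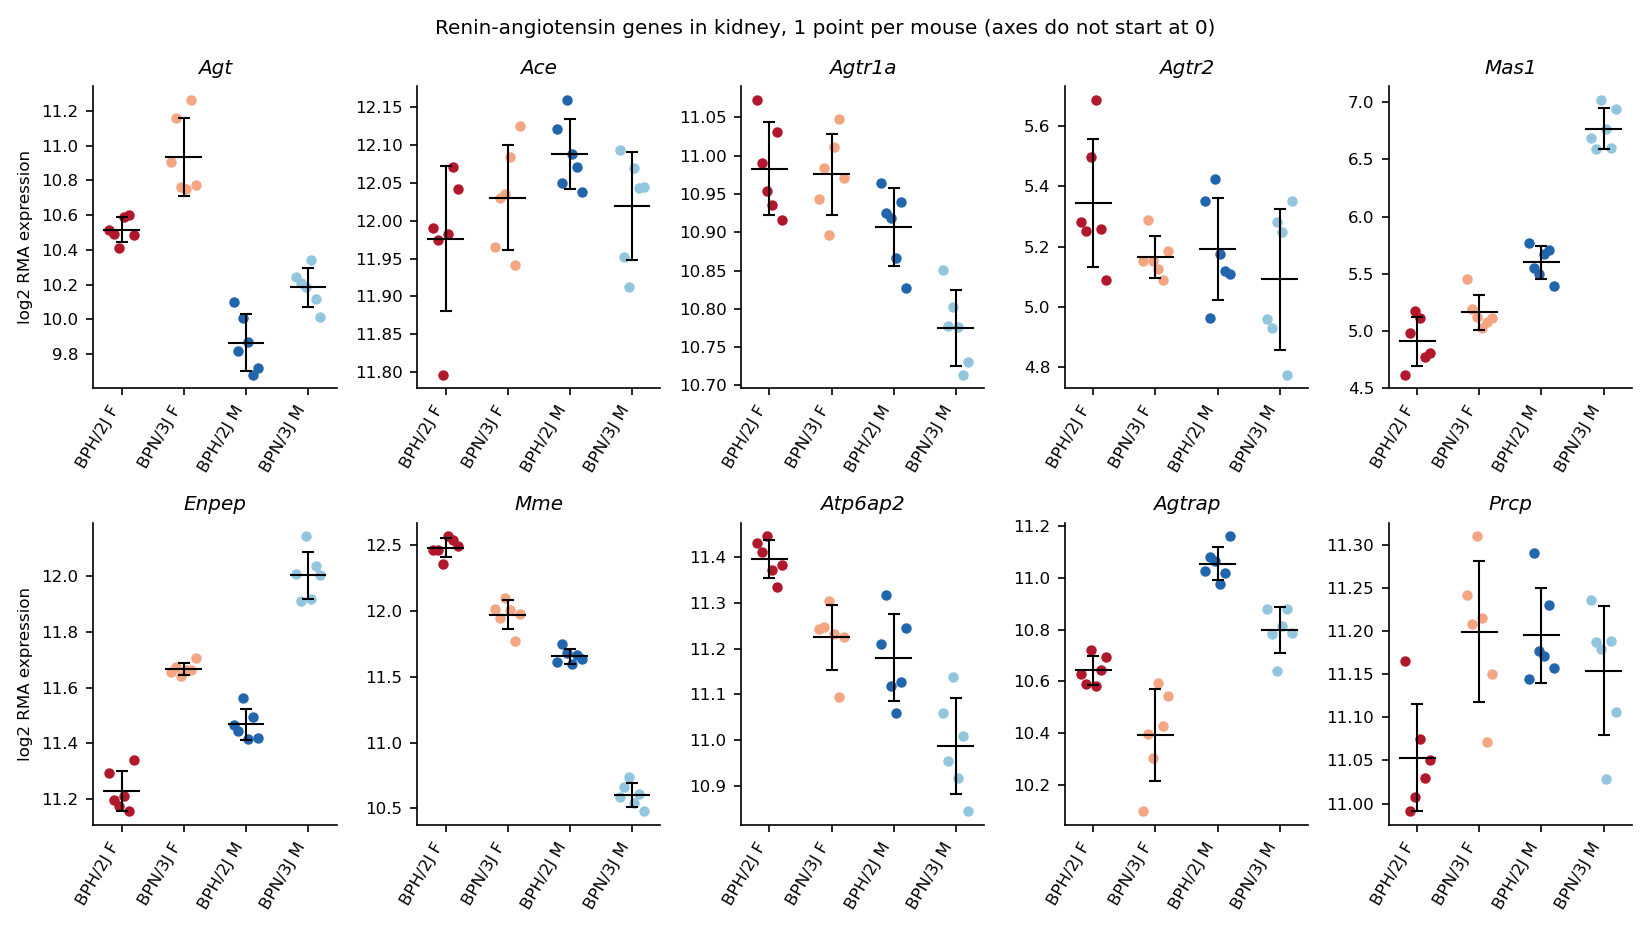
Log2 RMA expression of the 10 genes in kidney, with 1 panel per gene, 1 point per mouse, and a horizontal line with error bars for the mean and SD of 6 mice. BPH/2J is left of BPN/3J within females (F) and within males (M). Mme ran from 12.48 in BPH/2J females to 10.60 in BPN/3J males and Mas1 ran the opposite way, while the groups of Ace and Agtr2 overlapped.

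Mme encodes neprilysin, a membrane peptidase of the proximal tubule brush border and of podocytes that turns angiotensin I into angiotensin-(1-7) and also degrades natriuretic peptides. It differed most clearly of the 10 genes, and the 4 groups accounted for 98.7% of its variance over the 24 arrays. In females its lowest, median and highest levels were 12.36, 12.48 and 12.57 in BPH/2J and 11.77, 12.00 and 12.10 in BPN/3J. In males they were 11.60, 11.65 and 11.75 in BPH/2J and 10.48, 10.60 and 10.74 in BPN/3J. Every BPH/2J kidney was therefore above every BPN/3J kidney of its sex, and the 4 groups formed 4 separate bands. Among females it was 1.42-fold higher in BPH/2J (log2 difference 0.51, 95% interval 0.39 to 0.63, adjusted p = 2.75e-05). Among males it was 2.08-fold higher in BPH/2J (log2 difference 1.06, 0.95 to 1.16, adjusted p = 3.17e-09). The strain difference in females minus that in males, the strain-by-sex interaction, was -0.55 (-0.69 to -0.40, adjusted p = 4.36e-05), so the difference between strains was smaller in females.

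Mas1 encodes the Mas receptor of angiotensin-(1-7). Its probe set was dim, at the 29.4th percentile of mean expression over all probe sets, and the order of its groups was the exact reverse of that of Mme. In females its lowest, median and highest levels were 4.62, 4.90 and 5.18 in BPH/2J and 5.02, 5.12 and 5.46 in BPN/3J. In males they were 5.40, 5.61 and 5.77 in BPH/2J and 6.59, 6.73 and 7.02 in BPN/3J. The BPN/3J males thus stood above all other mice, and the strains overlapped only in females. The female means lay at the 17.9th percentile of all probe sets in BPH/2J and the 21.9th in BPN/3J, and the male means at the 29.2nd and the 48.3rd. Of the 4 means only that of BPN/3J males lay above the 40th percentile. No detection call was used here, so the levels of females and of BPH/2J males were not shown to be above background. Differences that involve these groups may be understated, the male strain difference among them, and no fold is given. In females the difference was -0.25 (95% interval -0.47 to -0.04) and missed the threshold (adjusted p = 0.119). Among males it was -1.17 (-1.35 to -0.98, adjusted p = 5.2e-07). The interaction was 0.91 (0.63 to 1.20, adjusted p = 0.000242), and Mas1 was the 1 gene of the 10 whose interaction was positive and called, beside 0.918% of all probe sets. A smaller strain difference in females and a floor of the signal cannot be told apart for this gene. Mme was the 1 gene with a called negative interaction, beside 0.842%. The span of Mas1 on chromosome 17 overlaps that of the long non-coding RNA Airn. The probe set of Airn, looked up after the overlap was seen, differed by -0.08 between strains in females (adjusted p = 0.681) and by -0.0020 in males (adjusted p = 0.991). Between females and males it was higher by 0.33 in BPH/2J (adjusted p = 0.00896) and by 0.41 in BPN/3J (adjusted p = 0.0031). Over the 24 arrays Mme and Mas1 correlated at r = -0.96, but their deviations from the group means correlated at r = -0.05, so the relation lay between the groups and not among mice of a group.

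Enpep encodes aminopeptidase A, a brush border enzyme that cuts angiotensin II to angiotensin III. It was lower in BPH/2J kidneys of both sexes, and its groups were as tight as those of Mme. Its lowest, median and highest levels in females were 11.16, 11.20 and 11.34 in BPH/2J and 11.64, 11.66 and 11.71 in BPN/3J. The male levels were 11.42, 11.46 and 11.56 in BPH/2J and 11.91, 12.00 and 12.14 in BPN/3J. No BPH/2J kidney reached the lowest BPN/3J kidney of either sex, and even BPH/2J males lay below BPN/3J females. The difference was -0.44 in females (95% interval -0.52 to -0.36, 1.35-fold lower, adjusted p = 3.45e-06) and -0.53 in males (-0.63 to -0.43, 1.45-fold lower, adjusted p = 2.27e-06). The interaction of 0.10 (-0.02 to 0.21) did not pass the test (adjusted p = 0.53).

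Agt encodes angiotensinogen, the precursor of all angiotensins, which the liver secretes in bulk and the proximal tubule also makes. In females its lowest, median and highest levels were 10.41, 10.51 and 10.60 in BPH/2J and 10.75, 10.84 and 11.26 in BPN/3J. Male kidneys had 9.68, 9.84 and 10.10 in BPH/2J and 10.01, 10.20 and 10.34 in BPN/3J. The strains were separate in females and overlapped in males. The difference was -0.42 in females (95% interval -0.61 to -0.23, 1.34-fold lower, adjusted p = 0.00596) and -0.32 in males (-0.48 to -0.15, 1.25-fold lower, adjusted p = 0.0113). The highest 2 Agt values among BPN/3J females, 11.16 and 11.26, came from arrays 2 and 5, the arrays with the highest hepatocyte means. Without both arrays the female difference was -0.28 (adjusted p = 0.00398), and with the hepatocyte and adrenal cortex means as covariates it was -0.35 (adjusted p = 0.00696). In males the Agt difference with these covariates was -0.32 (adjusted p = 0.0129). The hepatocyte means of males differed by 0.01 between strains, but this mean holds Ttr, which was higher by 3.15 in BPH/2J males. The median difference of the hepatocyte genes in males was -0.13, so the mean does not show that liver transcripts were equal. The part of liver transcripts in the male Agt difference was not tested.

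**Figure D2:**
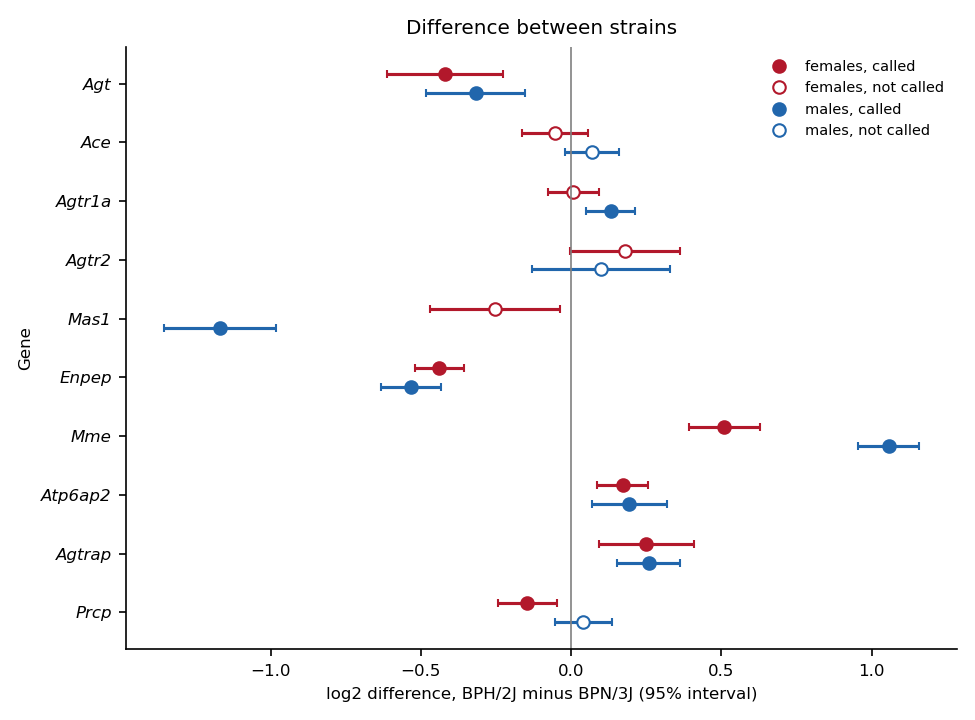
Differences between strains on the log2 scale, BPH/2J minus BPN/3J, with 95% intervals from limma on 6 mice per group, for females (red, above) and males (blue, below). Filled points were called at an adjusted p under 0.05. Mme at 0.51 and 1.06 and Enpep at -0.44 and -0.53 were called in both sexes, and Mas1 at -1.17 was called in males.

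Agtrap and Atp6ap2 act beside the classical receptors. Agtrap is the protein that binds the type 1 receptor and promotes its internalisation, and Atp6ap2 is the (pro)renin receptor, which is also an accessory subunit of the vacuolar proton pump. Agtrap had lowest, median and highest levels in females of 10.58, 10.64 and 10.72 in BPH/2J and 10.10, 10.41 and 10.59 in BPN/3J. Male levels were 10.98, 11.05 and 11.16 in BPH/2J and 10.64, 10.80 and 10.88 in BPN/3J. The strains were separate in males and just overlapped in females, where BPN/3J spread more widely. The difference was 0.25 in females (95% interval 0.09 to 0.41, adjusted p = 0.035) and 0.26 in males (0.15 to 0.36, adjusted p = 0.00222). The female call was lost without any 1 of 8 of the 12 arrays, with adjusted p up to 0.0755. It held without BPH/2J array 4 or BPN/3J array 1, 4 or 6, and without BPN/3J arrays 2 and 5 together the difference was 0.26 (adjusted p = 0.0904). By the methods' t-test the female call was also lost (adjusted p = 0.0973).

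Atp6ap2 had lowest, median and highest levels in females of 11.33, 11.40 and 11.45 in BPH/2J and 11.09, 11.24 and 11.30 in BPN/3J. Among males they were 11.06, 11.17 and 11.32 in BPH/2J and 10.84, 10.98 and 11.14 in BPN/3J. The strains were separate in females and overlapped in males. The difference was 0.17 in females (95% interval 0.09 to 0.26, adjusted p = 0.00961) and 0.19 in males (0.07 to 0.32, adjusted p = 0.0386). The male call was lost without any 1 of 8 of the 12 arrays, with adjusted p up to 0.0831, and held without BPH/2J array 3 or 4 or BPN/3J array 1 or 3. By the methods' t-test it was also lost (adjusted p = 0.0541). Without BPN/3J arrays 2 and 5 the female difference was 0.14 (adjusted p = 0.0347). The interactions of Agtrap (-0.0070, adjusted p = 0.99) and Atp6ap2 (-0.02, adjusted p = 0.949) did not pass the test.

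Of the angiotensin II receptors, Agtr1a, the main type 1 receptor of the mouse kidney, varied within 0.36 over all 24 arrays. In females its lowest, median and highest levels were 10.92, 10.97 and 11.07 in BPH/2J and 10.90, 10.98 and 11.05 in BPN/3J. In males they were 10.83, 10.92 and 10.96 in BPH/2J and 10.71, 10.78 and 10.85 in BPN/3J. The female groups covered nearly the same range, and in males BPH/2J lay higher with an overlap. The difference was 0.0075 in females (95% interval -0.08 to 0.09, adjusted p = 0.932) and 0.13 in males (0.05 to 0.21, adjusted p = 0.0321). The male call was lost without any 1 of 8 of the 12 arrays, with adjusted p up to 0.0748, and held without BPH/2J array 4 or 6 or BPN/3J array 1 or 3. It also missed the threshold with the hepatocyte and adrenal cortex means as covariates (adjusted p = 0.0571). The interaction of -0.12 was not called (adjusted p = 0.277), so a difference between the sexes in the strain effect was not shown.

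Agtr2, the type 2 receptor, which is largely a fetal receptor in the kidney, was dim at the 22.1st percentile of mean expression and lay between 4.78 and 5.69 over all arrays. Its group means were 5.34 ± 0.21 in BPH/2J females, 5.17 ± 0.068 in BPN/3J females, 5.19 ± 0.17 in BPH/2J males and 5.09 ± 0.23 in BPN/3J males (SD, n = 6 each). No step between neighbours in this order exceeded the larger SD of the pair. The strain difference was 0.18 in females (95% interval -0.0049 to 0.36, adjusted p = 0.208) and 0.10 in males (-0.13 to 0.33, adjusted p = 0.622).

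Ace, the converting enzyme itself, which the proximal tubule carries at its brush border, kept within 0.36 over the 24 arrays. It averaged 11.98 ± 0.095 in BPH/2J females, 12.03 ± 0.069 in BPN/3J females, 12.09 ± 0.046 in BPH/2J males and 12.02 ± 0.071 in BPN/3J males (SD, n = 6 each). Its strain difference was -0.05 in females (95% interval -0.16 to 0.05, adjusted p = 0.564) and 0.07 in males (-0.02 to 0.16, adjusted p = 0.33), so the intervals allow a change of at most 0.16 in either direction.

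Prcp encodes the lysosomal prolylcarboxypeptidase, which removes the last residue of angiotensin II to give angiotensin-(1-7). Its lowest, median and highest levels in females were 10.99, 11.04 and 11.16 in BPH/2J and 11.07, 11.21 and 11.31 in BPN/3J. In males they were 11.14, 11.17 and 11.29 in BPH/2J and 11.03, 11.18 and 11.24 in BPN/3J. The strains overlapped in both sexes, and BPH/2J females held the lowest mean. The difference was -0.15 in females (95% interval -0.24 to -0.05, adjusted p = 0.0478) and 0.04 in males (-0.05 to 0.13, adjusted p = 0.621), and the interaction of -0.19 was not called (adjusted p = 0.133). The female call was lost without any 1 of 10 of the 12 arrays, with adjusted p up to 0.103, and held without BPH/2J array 1 or BPN/3J array 5. Without BPN/3J arrays 2 and 5 together the difference was -0.18 (adjusted p = 0.0367).

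Between the sexes, 7 of the 10 genes were called in each strain. In BPH/2J, Agt, Mme and Atp6ap2 were higher in females (15.6% of all probe sets were), and Mas1, Enpep, Agtrap and Prcp were lower (13.4%). In BPN/3J, Agt, Mme, Atp6ap2 and Agtr1a were higher in females (14.4%), and Mas1, Enpep and Agtrap were lower (14.8%). Here too calls were a larger share of the brighter probe sets. Above the 40th percentile of mean expression 8660 were called in BPH/2J and 8442 in BPN/3J, against 8349 and 8424 over all probe sets. The sexes did not overlap for 6 of the genes in BPH/2J (18.2% of all probe sets) and for 6 in BPN/3J (17.6%). The 2 strains share no arrays in these comparisons. In females of both, 3 genes were higher and 3 lower, and the share of all probe sets called alike in both strains was not computed.

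Mme was 1.77-fold higher in females than in males of BPH/2J (log2 difference 0.83, 95% interval 0.73 to 0.92, adjusted p = 1.44e-08) and 2.59-fold higher in females of BPN/3J (1.37, 1.25 to 1.50, adjusted p = 2.11e-09). Mas1 was lower in females of BPH/2J (log2 difference -0.69, -0.90 to -0.48, adjusted p = 0.000125) and of BPN/3J (-1.60, -1.79 to -1.41, adjusted p = 2.61e-08). Its levels in females and in BPH/2J males may lie at background. Without BPN/3J female arrays 2 and 5 the BPN/3J differences were 1.43 for Mme (adjusted p = 1.18e-08) and -1.59 for Mas1 (adjusted p = 9.9e-07). By the interactions above, the measured sex difference of both genes was smaller in BPH/2J. Agt, the substrate, was 1.57-fold higher in females of BPH/2J (0.65, 0.50 to 0.80, adjusted p = 1.17e-05). In BPN/3J it was 1.68-fold higher in females (0.75, 0.55 to 0.95, adjusted p = 5.03e-05), and without female arrays 2 and 5 the difference was 0.61 (adjusted p = 3.65e-05). All females of a strain were above all males of it for Agt and Mme, and below them for Mas1, Enpep and Agtrap.

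Enpep differed by -0.24 between females and males of BPH/2J (adjusted p = 0.000782) and by -0.34 in BPN/3J (adjusted p = 4.79e-05). Agtrap differed by -0.41 in BPH/2J (adjusted p = 5.71e-06) and by -0.41 in BPN/3J (adjusted p = 0.00134), so it was lower in females and higher in BPH/2J, and BPH/2J males were at the top. Atp6ap2 was higher in females by 0.22 in BPH/2J (adjusted p = 0.00294) and by 0.24 in BPN/3J (adjusted p = 0.00407), and its sexes overlapped in BPN/3J only. Agtr1a was higher in females by 0.20 in BPN/3J (adjusted p = 0.00125), and in BPH/2J it differed by 0.08 (-0.0078 to 0.16, adjusted p = 0.175; 0.0456 after quantile normalisation). Prcp was lower in females by 0.14 in BPH/2J (log2 difference -0.14, adjusted p = 0.017; 0.0625 after quantile normalisation), and in BPN/3J it differed by 0.05 (adjusted p = 0.527). Ace differed by -0.11 between females and males of BPH/2J (adjusted p = 0.0946), and this value passed the threshold once arrays were shifted to a common median (-0.15, adjusted p = 0.0231), without dim probe sets (adjusted p = 0.0492) and with trended and robust variance (adjusted p = 0.031). In BPN/3J the sex difference of Ace was 0.01 (adjusted p = 0.884). Agtr2 was called in neither strain.

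**Figure D3:**
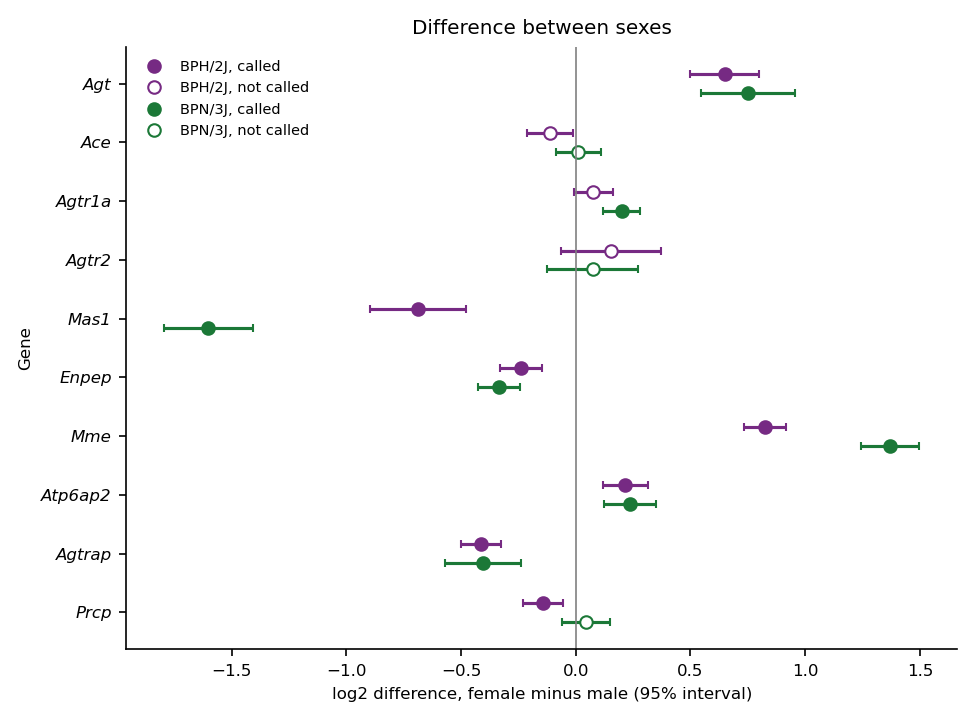
Differences between sexes on the log2 scale, female minus male, with 95% intervals from limma on 6 mice per group, for BPH/2J (purple, above) and BPN/3J (green, below). Filled points were called at an adjusted p under 0.05. Mme at 0.83 and 1.37 and Agt at 0.65 and 0.75 were higher in females of both strains, and Mas1 at -0.69 and -1.60 was lower.

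Levels in whole kidney depend on the cells present as well as on expression per cell, and fewer cells of a type and less RNA per cell cannot be told apart in these samples. Neprilysin is made by podocytes, and 6 podocyte genes were measured. Of these, 6 were higher in BPH/2J females than in BPN/3J females (8.01% of all probe sets were) and 4 in BPH/2J males than in BPN/3J males (7.48%). In each strain 6 were higher in females (15.6% of all probe sets in BPH/2J and 14.4% in BPN/3J). The podocyte mean ran from 8.64 to 8.71 in BPH/2J females, 8.31 to 8.50 in BPN/3J females. Among males it ran from 8.21 to 8.30 in BPH/2J, below all females, and from 7.68 to 8.05 in BPN/3J. The mean was higher by 0.29 in BPH/2J females and by 0.30 in BPH/2J males, and by 0.42 and 0.43 in females of BPH/2J and of BPN/3J. Each of these had an exact two-sided permutation p of 0.00216, the smallest that 924 regroupings allow (0.00628 after Benjamini-Hochberg adjustment over 32 such tests of list means). Mme followed the podocyte mean with r = 0.95 over the 24 arrays and with r = 0.25 on deviations from the group means. For Mas1 the same correlations were -0.90 and -0.09, and for Atp6ap2 they were 0.88 and 0.24. For Enpep they were -0.83 and 0.47, with opposite signs between groups and within them. The mean of 9 genes of vascular smooth muscle and pericytes moved in the same directions, by 0.27 and 0.25 between strains in females and males and by 0.28 and 0.26 between sexes in BPH/2J and BPN/3J (the same p in each). Not all of its genes did so. Mylk was lower in females of BPN/3J (-0.24, adjusted p = 0.00167 by limma), and Smtn differed by -0.06 and -0.11 between strains in females and males, neither called. The adipocyte mean was higher in BPH/2J females than in BPN/3J females by 1.07 (exact permutation p = 0.00216) and than in BPH/2J males by 0.74 (exact permutation p = 0.00433, adjusted 0.0115). Its 7 genes did not move alike. Ucp1 and Cidea differed most, by 3.495 and 1.503 between strains in females and by 2.127 and 0.81 between sexes in BPH/2J. Lep differed the other way, by -0.15 and -0.09. The adrenal cortex mean averaged 8.39 ± 2.07 in BPH/2J females, 8.22 ± 2.26 in BPN/3J females, 6.60 ± 1.17 in BPH/2J males and 6.77 ± 1.56 in BPN/3J males (SD, n = 6 each) and passed in no comparison (exact permutation p = 0.115 to 0.848). The kidney marker mean was higher in females by 0.21 in BPH/2J and 0.20 in BPN/3J (exact permutation p = 0.00216 in each). It correlated with Agt at r = 0.73 on values and -0.27 on deviations, and with Mme at r = 0.77 and 0.34. With the hepatocyte and adrenal cortex means as covariates, the strain differences in females and males were 0.47 and 1.05 for Mme, -0.44 and -0.53 for Enpep, and 0.16 and 0.19 for Atp6ap2, and that of Mas1 in males was -1.17, each still called. The part of podocytes, vessels and fat in the differences of Mme, Mas1, Enpep and Atp6ap2 was not tested.

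The brush border of the proximal tubule, where Ace, Enpep and Mme lie, was followed by 10 other genes. Their mean differed by -0.03 between strains in females (exact permutation p = 0.31) and by 0.0039 in males (exact permutation p = 0.831). In females 1 of the 10 was lower in BPH/2J (Slc5a12, a lactate transporter, -0.15), against 6.48% of all probe sets. In males 1 was higher (Mep1b, a subunit of meprin, 0.19), against 7.48%, and 1 lower (Slc22a6, an organic anion transporter, -0.24), against 7.70%. Between sexes 4 were higher and 5 lower in females, in BPH/2J and in BPN/3J alike. Over all probe sets 15.6% were higher and 13.4% lower in BPH/2J females, and 14.4% and 14.8% in BPN/3J females. The brush border mean was lower in females by 0.08 in BPH/2J (log2 difference -0.08, exact permutation p = 0.00866, adjusted 0.0213) and differed by -0.05 in BPN/3J (exact permutation p = 0.0238, adjusted 0.0544). The hepatocyte mean did not pass in any of the 4 comparisons (exact permutation p = 0.364 to 0.987), but its 19 genes did not move alike. Between sexes 4 of them were lower and 0 higher in females of BPH/2J, and 2 were lower and 0 higher in BPN/3J. Cyp2e1 (-2.09 and -1.22) and Proc (-1.045 and -1.015) were lower in both strains. Within groups, with all 4 groups pooled, the hepatocyte mean went with some of the 10 genes. On deviations from the group means over the 24 arrays it correlated with Agt at r = 0.63, with Mme at r = -0.72 and with Prcp at r = -0.57. For Agt the groups did not go alike. The array with the highest hepatocyte mean had the highest Agt value in BPN/3J females (array 5, 11.26) and BPH/2J males (array 1, 10.10). It had the lowest in BPH/2J females (array 3, 10.41) and BPN/3J males (array 6, 10.01). Correlations without BPN/3J female arrays 2 and 5 were not computed. Arrays of 1 group share a strain and a sex, and these correlations are descriptions. Without BPN/3J female arrays 2 and 5, the strain difference of Mme in females was 0.45 (adjusted p = 0.000101).

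**Figure D4:**
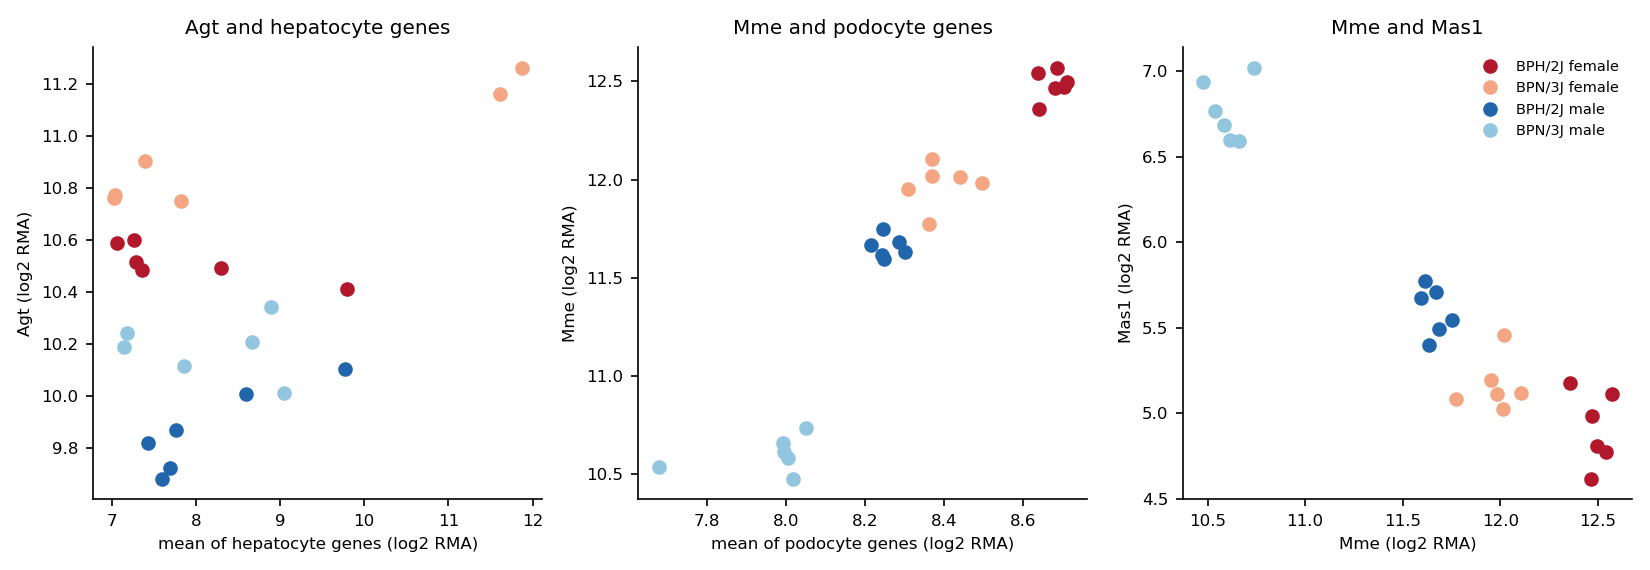
Agt against the mean of 19 hepatocyte genes (left), Mme against the mean of 6 podocyte genes (centre) and Mas1 against Mme (right), all in log2 RMA units, with 1 point per mouse coloured by group. The 2 BPN/3J females with hepatocyte means of 11.61 and 11.87 had the highest Agt values, and Mme rose with the podocyte mean from group to group, with Mas1 running against Mme.

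Other genes of the system were counted from a list of 18, of which 12 had a probe set of their own symbol. The remaining 6 were not analysed here, and the genes of renin were among them. In females 3 of the 12 were higher and 1 lower in BPH/2J, set against 8.01% and 6.48% of all probe sets. In males 4 were higher and 1 lower, set against 7.48% and 7.70%. Cpa3, the carboxypeptidase of mast cells, was higher in BPH/2J by 0.43 in females (adjusted p = 0.0116) and by 0.32 in males (adjusted p = 0.0256). Mcpt4, a mast cell chymase that forms angiotensin II, differed by 0.13 in females (adjusted p = 0.407) and was higher by 0.33 in males (adjusted p = 0.00372). Rnpep, aminopeptidase B, was higher by 0.28 in females (adjusted p = 0.000215) and 0.34 in males (adjusted p = 0.000135), and Ctsa, a lysosomal carboxypeptidase that acts on angiotensin I, by 0.17 in females (adjusted p = 0.00474) and 0.19 in males (adjusted p = 0.0138). Nln, neurolysin, which cuts angiotensin I to angiotensin-(1-7), was lower in BPH/2J, with differences of -0.29 in females (adjusted p = 0.000464) and -0.33 in males (adjusted p = 0.00024). Between sexes 6 of the 12 were lower in females of BPH/2J (13.4% of all probe sets were). In females of BPN/3J 6 were lower (14.8%) and 1 was higher (14.4%). By limma 0 of the 12 had a called interaction, beside 0.918% of all probe sets called positive and 0.842% called negative. At an unadjusted p under 0.05 by limma there were 2, and the share of all probe sets at that threshold was not computed. The median strain difference of the 12 was 0.11 in females and 0.13 in males.

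The genes whose levels over the 24 arrays were most like those of the 10 were also listed, as a description. For Mme they were Lyplal1 (r = 0.98), Scgb1c1 (r = 0.98) and Shmt1 (r = 0.97), and for Mas1 they were Tmprss9 (r = 0.97), Sdhaf1 (r = 0.96) and Mkrn1 (r = 0.95). For Enpep they were Fuca1 (r = 0.98), Dnajc12 (r = 0.97) and Slc25a10 (r = 0.97), and for Agtrap Hgs (r = 0.95), Tufm (r = 0.95) and Arnt2 (r = 0.95). The genes closest to Agt were Afm (r = 0.95), Serpina6 (r = 0.94) and C8a (r = 0.94), each of which encodes a plasma protein made by the liver. With the hepatocyte mean Agt correlated at r = 0.35 on values and 0.63 on deviations from the group means. Among the 10 genes themselves, Mme and Atp6ap2 kept a relation within groups (r = 0.90 on values, 0.57 on deviations from the group means). Mme and Prcp went together only within groups (r = -0.23 on values, 0.67 on deviations). On deviations the hepatocyte mean correlated with Mme at r = -0.72, with Prcp at r = -0.57 and with Atp6ap2 at r = -0.36. Of the arrays rich in hepatocyte transcripts, BPN/3J female array 5 was lowest of its group in each of these genes and array 2 in none. The part of liver transcripts in these relations was not tested. The group explained 96% of the variance of Enpep, 95.2% of Mas1, 88.9% of Agt, 85.5% of Agtrap, 79.3% of Atp6ap2 and 74.6% of Agtr1a, against 46.6% of Prcp, 26.6% of Ace and 23.4% of Agtr2.

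The promoters of Mme, Mas1, Enpep and Agt, the 4 genes with the largest strain differences, are shown to place them beside each other, as windows from 250 bases before to 50 bases after the start of transcription in RefSeq on build GRCm38.p6. They are the reference sequence and not that of BPH/2J or BPN/3J. The windows lie at chr3:63294961-63295260 on the plus strand for Mme (the first of its 3 starts), chr17:12868094-12868393 on the minus strand for Mas1, chr3:129332700-129332999 on the minus strand for Enpep and chr8:124569657-124569956 on the minus strand for Agt. Each is printed 5′ to 3′ with every match to 5 motifs in capitals.
Mme: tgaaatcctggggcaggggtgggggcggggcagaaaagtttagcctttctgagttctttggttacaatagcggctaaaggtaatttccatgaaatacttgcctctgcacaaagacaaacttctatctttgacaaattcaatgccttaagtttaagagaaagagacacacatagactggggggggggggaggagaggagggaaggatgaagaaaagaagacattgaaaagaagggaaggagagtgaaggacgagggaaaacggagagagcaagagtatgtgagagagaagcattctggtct
Mas1: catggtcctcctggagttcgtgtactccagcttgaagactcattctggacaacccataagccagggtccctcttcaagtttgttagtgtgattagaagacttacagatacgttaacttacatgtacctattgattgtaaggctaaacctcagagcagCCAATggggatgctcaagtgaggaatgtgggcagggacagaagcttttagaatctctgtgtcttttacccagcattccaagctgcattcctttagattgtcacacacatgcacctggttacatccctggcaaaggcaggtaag
Enpep: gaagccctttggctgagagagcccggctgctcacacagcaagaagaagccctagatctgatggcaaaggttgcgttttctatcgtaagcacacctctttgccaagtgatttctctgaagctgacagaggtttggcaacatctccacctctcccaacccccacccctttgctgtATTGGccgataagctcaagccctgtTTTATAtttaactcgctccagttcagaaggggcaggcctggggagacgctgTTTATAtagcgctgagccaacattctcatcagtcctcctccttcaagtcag
Agt: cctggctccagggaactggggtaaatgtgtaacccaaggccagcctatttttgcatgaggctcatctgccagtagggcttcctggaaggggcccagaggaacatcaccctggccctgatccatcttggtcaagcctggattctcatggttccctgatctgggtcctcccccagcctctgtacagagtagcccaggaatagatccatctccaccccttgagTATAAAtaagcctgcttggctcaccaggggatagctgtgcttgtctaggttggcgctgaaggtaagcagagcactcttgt
The motifs were searched on both strands, and no matches overlapped within a window. They were the TATA box (TATAAA, in 13.6% of 32851 promoters), the CCAAT box (CCAAT, 37.4%), the nuclear receptor half-site (AGGTCA, 16.3%), the half-site of the androgen and glucocorticoid receptors (AGAACA, 19%) and the HNF1 half-site (GTTAAT, 7.1%). Agt held 1 TATA match, Enpep held 2 TATA matches and 1 CCAAT match, Mas1 held 1 CCAAT match, and the printed Mme window held none. The windows of the other 2 starts of Mme, not printed, held 2 CCAAT matches and 1. These windows overlap each other, and the single match of the last is the same site as 1 of the 2. G and C made up 46%, 73% and 72.3% of the 3 Mme windows, 46% in Mas1, 51.3% in Enpep and 54.7% in Agt, beside a median of 52.7% over all promoters. A match only describes the letters in the window, and a window was at hand for 9 of the 10 genes.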

How the data were processed

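Kidney RNA of 24 mice was labelled and hybridised to Affymetrix Mouse Gene 1.0 ST arrays, with no mouse on more than 1 array. RMA was the authors' normalisation (version: not given in the sources used here), and the deposited values are on the log2 scale, from 2.12 to 14.55. They were used as they stand. Strain, sex and number of an array came from its label, and 0 columns had no sample. Symbols came from the array's probe annotation: 21159 probe sets carried 1 symbol, 1881 several and 5813 none, and only probe sets with 1 symbol were used for genes.

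Strains were compared within sexes and sexes within strains by limma (version 3.58.1, R version 4.3.3) on 12 arrays, and the interaction on 24, over all 28853 probe sets. Calls used a Benjamini-Hochberg adjusted p under 0.05. The study's methods used Bonferroni adjustment, which is given as an alternative, as is the methods' t-test. List means were compared by exact permutation tests over 924 regroupings. The fits were tested on simulated data. All 10 genes were described. Of 18 other renin-angiotensin genes at most 6, those with the largest called strain difference, were named, of the brush border genes at most 4, and for likeness the 3 highest correlations. The probe set of Airn was added after its overlap with Mas1 was seen. The members and lists were chosen with earlier results of these data known.

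Alternatives were a shift to a common median, quantile normalisation, a filter on dim probe sets (mean expression below the 40th percentile), all 24 arrays in 1 fit, trended and robust variance, the replicate number as a block, hepatocyte and adrenal cortex means as covariates, leaving out BPN/3J female arrays 2 and 5, and leaving out each array in turn. No 2 arrays were copies (highest correlation 0.9972). The number of arrays limits the precision. Gene positions and promoters came from RefSeq on GRCm38.p6, all 10 genes matching by gene ID, and a genome was not used here. Python 3.11.15 with matplotlib 3.10.9 drew the figures.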

Additional observations from a re-analysis of the deposited data

Results flagged for a closer look

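The strain effect differed between the sexes for 2 genes, by a test of the difference itself in limma over all 24 arrays. The strain difference in females minus that in males was 0.914 for Mas1 (adjusted p = 0.000242) and -0.546 for Mme (adjusted p = 4.36e-05). The Mas1 levels of females and of BPH/2J males were not shown to be above background.

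In 68 groups of 6 arrays (40 of them groups of the 10 genes), the gap of the highest or lowest array to its nearest neighbour was compared with the whole range by Dixon's criterion, which chance exceeds in about 5% of groups. Among the 10 genes 2 groups exceeded it. Ace in BPH/2J females had a gap of 0.646 of the range, from array 3 at 11.80 with the next at 11.97. Atp6ap2 in BPN/3J females had a gap of 0.63, from array 5 at 11.09 with the next at 11.23, and array 5 is 1 of the 2 rich in hepatocyte transcripts. Among the marker lists, the ratio was 0.846 for podocyte genes in BPN/3J males (array 4 at 7.68), 0.67 for genes of vascular smooth muscle and pericytes in BPH/2J females (array 6 at 9.54), 0.638 for adipocyte genes in BPH/2J males (array 3 at 8.86), 0.633 for leukocyte genes in BPH/2J females (array 3 at 7.35) and 0.771 for leukocyte genes in BPH/2J males (array 4 at 7.40). Array 3 of the BPH/2J females was lowest in Ace and highest of its group in leukocyte genes and in hepatocyte genes (9.79, the next at 8.30).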

How the results depend on the processing

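Of 1170 values of the 10 genes under alternatives, 1085 kept their direction and side of the threshold, 63 lost the call, 4 gained it and 18 turned sign, none of them called. At the Bonferroni threshold the genes called were 2 and 3 for strain in females and males and 3 and 2 for sex in BPH/2J and BPN/3J, against 6, 7, 7 and 7. Over all probe sets they were 681 and 740 for strain in females and males, 1361 and 1367 for sex in BPH/2J and BPN/3J and 104 for the interaction, against 4180, 4381, 8349, 8424 and 508. Without dim probe sets the interaction was called for 1 gene, since that filter removed Mas1. Calls of Mme, Enpep, Agt and Mas1 held in every fit other than Bonferroni in which they were tested. With the replicate block, calls were lost for Agtrap (adjusted p = 0.0638) and Prcp (0.0789) in females, for Agtr1a (0.0716) and Atp6ap2 (0.093) in males, and for Prcp between sexes of BPH/2J (0.0722). Deviations of same-numbered arrays correlated at r = -0.567 to 0.444. Of 6 numbers, 4 matched best between strains in females, 2 between sexes in BPN/3J and 0 in the other 2 comparisons. The labels do not say that a number pairs mice, and the main fits did not use it. What the matches between strains in females reflect was not tested. Values that turned sign were Ace between sexes of BPN/3J after the median shift (-0.0272), the interaction of Agtrap with covariates (0.0144) and without BPN/3J female arrays 2 and 5 (0.0019), and that of Agt without these arrays (0.0376). Leaving out 1 array at a time also turned Agtr1a between strains in females (-0.0105 to 0.022), Ace between sexes of BPN/3J (-0.0104 to 0.0288), and the interactions of Atp6ap2 (-0.051 to 0.0076) and Agtrap (-0.066 to 0.0332). The median shift ended 1 call of Prcp, quantile normalisation ended 2 and the methods' t-test ended 1 of Atp6ap2 and 1 of Agtrap; the cause was not tested. A mean over probe sets could not differ, since each gene had 1.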
